A study of Mus musculus with 91 samples.

Results

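The miR-379 to miR-667 group is the upstream stretch of the large maternally expressed miRNA cluster at the imprinted Dlk1-Dio3 locus on mouse chromosome 12. Its members were taken by name: every mature miRNA of the main count table, either arm and any letter, named miR-379, miR-411, miR-299, miR-380, miR-1197, miR-323, miR-758, miR-329, miR-494, miR-679, miR-1193, miR-666, miR-543, miR-495 or miR-667. The rule found 32 of the 1504 rows. The miR-299b rows hold the reads of miR-299a a second time: the 5p values were identical in 91 of 91 libraries and the 3p values in 89 of 91, with a largest difference of 13 counts. Counts of members below are therefore over 30, with miR-299b left out.

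The libraries are CAS-seq libraries, a small RNA method for very little input, in which Cas9 removes adapter dimers before amplification. The study asked how miRNAs change in mouse embryos that lack DNA methyltransferases. Zygotes from C57BL/6 males and F1 females, by the methods Oct4-EGFP males on a C57BL/6J background and B6D2F1 females (a cross of C57BL/6J with DBA2), were injected with a cytosine base editor and guide RNAs that write stop codons into Dnmt1 (Dnmt1-KO), into Dnmt3a and Dnmt3b (Dnmt3a/3b-DKO) or into all of these genes (Dnmt-null), and control zygotes were injected too. Extraembryonic ectoderm (Exe) and epiblast (Epi) were taken at E6.5 and E7.5, with 4 libraries in each group except 3 each for E7.5 Epi control and E7.5 Epi Dnmt-null. Dnmt1 copies methylation onto newly made DNA strands, and Dnmt3a and Dnmt3b write it anew.

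The same assay was run on androgenetic haploid embryonic stem cells (AG-haESCs), which hold only a paternal genome, and on semi-cloned (SC) embryos made by injecting such cells into oocytes. The AG-haESC groups are WT, O48, 408 and Mir-6KO, and no source used here says what 408 is. The study describes Mir-6KO cells, expanded from single cells, as cells with the H19-DMR and the IG-DMR deleted (DKO) that also lack 6 miRNA genes, none of them a member. Its methods say that they were made from O48, and O48 is taken here, by inference, as the DKO line. In SC embryos these deletions lie on the injected genome and so on 1 allele. The SC embryos at E6.5 are labelled WT, Dnmt-null, DKO (both DMRs deleted) and DKO;Dnmt-null, and those at E7.5 Mir-6KO;Dnmt-null and a DKO-derived control. The labels call them semi-cloned embryos, while the study describes epiblast at E6.5, so that the tissue behind these values is not certain. Each of these groups has 3 libraries, except 2 for the AG-haESCs labelled Mir-6KO. In total there were 91 libraries in 26 groups. In libraries of bulk tissue, fewer cells of a type and less RNA per cell cannot be told apart.

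At this locus the protein genes Dlk1, Rtl1 and Dio3 are expressed from the paternal chromosome, and the long RNAs Meg3, Rian and Mirg and the miRNAs from the maternal one. The IG-DMR, a control region methylated on the paternal chromosome, sets this pattern. The study states that AG-haESCs, cultured with the inhibitors called 2i, lose methylation of the H19-DMR and the IG-DMR. In SC embryos, by the study, the IG-DMR does not regain it. AG-haESC WT and SC WT thus stand for a hypomethylated IG-DMR, and the study deletes both DMRs to mimic their methylated state in part. A mature miRNA guides Argonaute to messenger RNAs by its seed, bases 2 to 8, and lowers their translation and stability. The miRNAs of this cluster are best known from brain and placenta, and mice that lack the cluster adapt poorly to birth.

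In RefSeq GRCm38.p6 the 16 hairpins lie on chromosome 12 between 109709060 and 109720097, a stretch of 11.038 kb. All are on the plus strand except Mir299b, which lies opposite Mir299a. None falls inside annotated Mirg, although the cluster is often named after it. Mirg starts 9.667 kb downstream of the last hairpin in GENCODE vM21 and 14.88 kb downstream in RefSeq, and Rian ends 47.34 kb upstream of the first.

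All 32 members were matched to a mature sequence of RefSeq GRCm38.p6. Only those that the results turn on are printed, 5′ to 3′ with the seed in capitals. The first pairs share a seed with each other, so that a member of such a pair may bind the same sites as its partner.
miR-379-3p: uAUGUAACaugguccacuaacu
miR-411-3p: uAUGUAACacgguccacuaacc
miR-379-5p: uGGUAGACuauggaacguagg
miR-1193-5p: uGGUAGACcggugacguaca
miR-1197-5p: cGGUUGACcaugguguguacg
miR-758-5p: uGGUUGACcagagagcacacg
miR-299a-3p: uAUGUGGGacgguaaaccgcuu
miR-299b-3p: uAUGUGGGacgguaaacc
miR-379-3p and miR-411-3p were identical at 20 of 22 bases, and miR-299b-3p is the first 18 bases of miR-299a-3p. The next 2 arms, of neighbouring hairpins, were identical at 18 of 22 bases, but their seeds differ.
miR-543-3p: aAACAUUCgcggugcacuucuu
miR-495-3p: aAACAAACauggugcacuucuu
The remaining arms shown were either the most abundant ones or rose in a mutant, and each has a seed of its own among the members.
miR-494-3p: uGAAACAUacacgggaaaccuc
miR-323-3p: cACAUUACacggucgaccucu
miR-758-3p: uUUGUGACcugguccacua
miR-1193-3p: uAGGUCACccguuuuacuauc
miR-411-5p: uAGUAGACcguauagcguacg
miR-380-3p: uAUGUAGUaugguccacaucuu
miR-666-5p: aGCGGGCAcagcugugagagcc
miR-667-3p: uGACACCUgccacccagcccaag
miR-679-5p: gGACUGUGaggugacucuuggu
miR-323-5p: aGGUGGUCcguggcgcguucgc
Across all listed mouse miRNAs, 5 member seeds also occurred outside the group: miR-411-5p shared its seed with miR-7229-5p, miR-329-3p with miR-362-3p, miR-494-5p with miR-410-5p, miR-1193-3p with miR-370-5p and miR-495-3p with miR-1192.

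Totals ran from 45242 to 26970637 miRNA counts per library, so that 3 counts were worth 0.111 to 66.3 CPM, the unit of level used below, in which the miRNA counts of each library are scaled to the same total. Some libraries stood apart. The 2 AG-haESC libraries labelled Mir-6KO carried 26.3% and 29.3% of their counts on the miR-302 and miR-367 family of epiblast cells, against 0.126% to 0.521% in the other AG-haESC libraries, and held reads of the miRNAs that were deleted. They are called libraries labelled Mir-6KO below. SC E6.5 WT replicate 3 had 2.73% on miR-302 and miR-367, against 21.4% and 23.6% in replicates 1 and 2. E6.5 Epi Dnmt-null replicate 1 was the library of lowest depth, and E6.5 Exe Dnmt1-KO replicate 3, with 293171 counts, had reads of 18 of the 30 members, against 25 to 28 in the other libraries of its group. E6.5 Exe Dnmt1-KO replicate 4 had blood markers at 1.15% of counts, against at most 0.0959% in E6.5 Exe control. E7.5 Exe Dnmt3a/3b-DKO replicate 2 likewise had 1.15%, against at most 0.337% in E7.5 Exe control. Results that rest on these libraries are also given without them.

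The group made up a few percent of all miRNA counts in embryos and less in the AG-haESC lines WT, O48 and 408. In E6.5 Epi control the members held 2.88% ± 0.156 of counts (SD, n = 4), and in E6.5 Exe control 1.76% ± 0.414. At E7.5 the shares were 2.34% ± 0.0829 in Epi control (n = 3) and 2.56% ± 0.249 in Exe control (n = 4). AG-haESC WT held 0.759% ± 0.0109 (n = 3), while the 2 AG-haESC libraries labelled Mir-6KO held 2.28% and 2.81%. The highest mean shares in embryos were those of SC E6.5 Dnmt-null at 4.49% ± 0.679 and E7.5 Epi Dnmt-null at 4.39% ± 0.268 (n = 3 each). These shares are a description and carry no test.

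**Figure D1:**
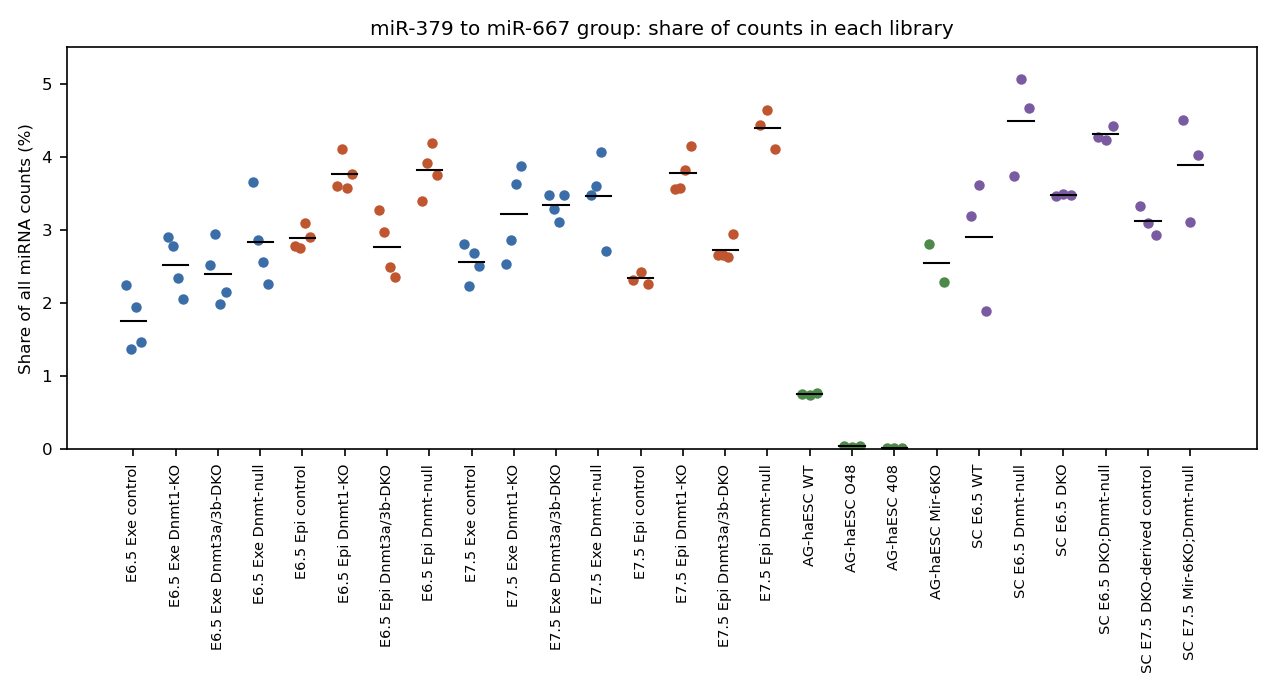
Share of all miRNA counts (%) on the members in each library, by group; points are libraries and lines are group means. The 3 E7.5 Epi Dnmt-null libraries lie at 4.10% to 4.63%, above the E7.5 Epi controls at 2.26% to 2.43%, and the AG-haESC O48 and 408 libraries lie close to 0.

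A few arms carried most of the reads. Over the 62 Exe and Epi libraries, the mean level was 5398 CPM for miR-494-3p, 5258 for miR-411-3p, 3057 for miR-323-3p, 2871 for miR-758-3p and 2705 for miR-1193-3p. These 5 arms held 63.3% of the counts on the members. The sterol exporter gene Abca1 is a reported target of miR-758-3p. The other arms at 100 CPM or more, 13 in number, ran from miR-411-5p at 1446 CPM down to miR-329-5p at 149 CPM. A further 8 arms had mean levels of 10 to 100 CPM. The lowest 4 were miR-679-3p at 5.05 CPM, miR-666-3p at 4.21, miR-495-5p at 3.97 and miR-1197-5p at 1.30. The span between the highest and lowest member was 4141-fold, although the hairpins lie within 11.038 kb, and 16 of the 30 members had counts in every Exe and Epi library.

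The level did not follow the order along the chromosome. Summed over both arms, the highest hairpins were miR-411 with 6704 CPM, 1.115 kb from the start of the group, and miR-494 with 5428 CPM at 6.258 kb. The hairpin miR-299a, next to miR-411, reached 247 CPM, and miR-1197, next to miR-323 at 3954 CPM, reached 29.6 CPM. Neighbouring hairpins thus differed widely in mature reads.

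Of the 15 hairpins with both arms listed, 13 had more reads on the 3p arm and 2 on the 5p arm. The 5p arms led in miR-679, with 99.3% of its counts, and in miR-666, with 99.4%. In miR-379 the arms were nearly even, with 48.9% on the 5p arm, and miR-323 and miR-411 had 24.9% and 19.9% there. In miR-494 and miR-495, by contrast, 0.651% and 0.317% of counts were on the 5p arm.

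The arm share of control Exe and Epi was compared for 13 hairpins at both stages by an exact two-sided permutation test, 26 tests in all. None passed after Benjamini-Hochberg adjustment, the smallest adjusted p being 0.371, and 2 had an unadjusted p of 0.0286, the smallest that 4 against 4 libraries allow. One of these was miR-323 at E6.5, with 25.3% ± 7.66 on the 5p arm in Exe and 11.3% ± 5.52 in Epi (n = 4 each). The other was miR-494 at E6.5, whose 5p arm had no count in Exe. With 3 Epi libraries at E7.5 the smallest p possible was 0.0571.

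**Figure D2:**
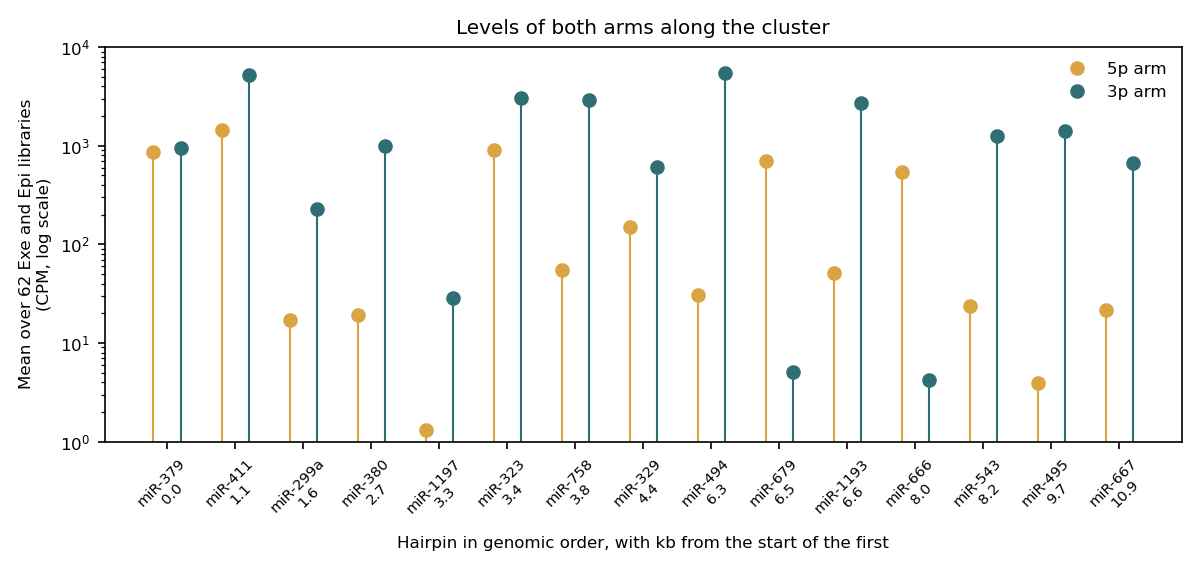
Mean level over the 62 Exe and Epi libraries (CPM, log axis) of the 5p and 3p arm of each hairpin, in genomic order with the distance in kb from the start of the first. The 3p arm is the higher one in 13 of 15 hairpins, miR-679 and miR-666 being the exceptions, and the arms of miR-379 lie next to each other.

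In control embryos at E6.5 the group was lower in Exe than in Epi. By the quasi-likelihood test of edgeR with Benjamini-Hochberg adjustment over all miRNAs tested, 7 of 26 members were lower in Exe and none was higher, against 15.4% of all miRNAs called lower and 14% higher. A member is called changed below only by this test with an adjusted p under 0.05. The median log2 fold change of the members was -0.75, beside -0.16 over all miRNAs.

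miR-323-3p had 1597, 827, 1885 and 735 CPM in the 4 Exe control libraries and 3241, 3557, 4446 and 4174 CPM in Epi. Its log2 fold change in Exe against Epi was -1.68 (SE 0.28, adjusted p = 2.05e-04). miR-494-3p had 2859, 1892, 3147 and 1023 CPM in Exe and 4544, 4716, 5228 and 5078 CPM in Epi, with a log2 change of -1.21 (SE 0.26, adjusted p = 0.00194). For both, every Exe library lay below every Epi library. The other members called lower were miR-758-3p (-1.20), miR-1193-3p (-0.94), miR-411-5p (-0.89), miR-379-3p (-0.78) and miR-494-5p. The last had no count in any Exe control library and a mean of 22.75 CPM in Epi, at least 4.27-fold higher against a floor of 3 counts over the Exe group. It thus passed the count filter only through other control groups, and its direction was fixed in advance. The count of members called lower above includes it.

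At E7.5 no member differed between control Exe and Epi, by edgeR or DESeq2 or at an unadjusted p under 0.05, while 22.2% of all miRNAs were higher and 10.9% lower in Exe. Members had a median of 0.07, but -0.10 with DESeq2 and -0.34 when Exe control replicate 1 was left out, so it had no stable sign. Without Exe control replicate 4, 1 member was lower in Exe. Between the stages, 4 of 26 members rose in Exe, against 10% of all miRNAs that rose and 4.3% that fell. These were miR-494-3p (log2 change 1.097, SE 0.26, adjusted p = 0.00669), miR-411-3p (0.93), miR-1193-3p (0.83) and miR-494-5p, for which the bound was at least 5.87-fold higher. As miR-494-5p had no count in E6.5 Exe control, it passed the count filter only through other groups. Its direction was fixed in advance, although it is among the 4. Without E6.5 Exe control replicate 4, 1 member also fell.

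In Epi, where the same members were tested as in Exe, 2 fell from E6.5 to E7.5 and none rose. Of all miRNAs, 17% fell and 9.86% rose, so members fell less often than miRNAs in general. miR-543-3p had 1359, 1508, 2095 and 1813 CPM at E6.5 and 383, 369.3 and 405 CPM at E7.5. It fell by 2.11 on the log2 scale (SE 0.39, adjusted p = 4.38e-04), and miR-379-3p fell by 0.96 (adjusted p = 0.0224). Without E6.5 Epi control replicate 1 or 3, or without any one of the E7.5 Epi controls, 1 member was called. Where the miRNAs of the locus were left out of the scaling, the counts were 13 lower in Exe at E6.5 and 5 lower in Epi at E7.5 against E6.5. In Epi control, the miR-290-295 family of trophoblast and naive cells held 14.7% to 16.3% at E6.5 and 4.31% to 4.44% at E7.5. Endoderm markers held 0.0745% to 0.177% (5 of 9 with counts) and 0.346% to 0.418% (6 of 9). Mesenchyme and decidua markers held 0.00894% to 0.0139% (5 of 7) and 0.0370% to 0.0608% (6 of 7), and blood markers 0.0277% to 0.0320% (6 of 8) and 0.0123% to 0.0195% (5 of 8). Other marker shares overlapped. The part of these was not tested.

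Most calls against control were made in E7.5 Epi. In Dnmt-null, 12 of 28 members rose and none fell, while 16.4% of all miRNAs were called higher and 17.3% lower. The member median log2 fold change was 0.62, beside -0.19 over all miRNAs, and 24 of the 28 were positive. All of the 12 had every Dnmt-null library above every control library. Without any one of the libraries, 10 to 12 members were called.

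Among the called members miR-543-3p had the largest fold change. It had 383, 369.3 and 405 CPM in the control libraries and 1228, 2045 and 1592 CPM in Dnmt-null, a log2 change of 1.83 (SE 0.25, adjusted p = 3.53e-05) or 3.55-fold. miR-323-3p had 2129, 2449 and 2065 CPM in control and 5105, 5771 and 5287 CPM in Dnmt-null, a log2 change of 1.05 (SE 0.15, adjusted p = 6.46e-05). miR-667-3p had 377.1, 483 and 394 CPM in control and 986, 903 and 1053 CPM in Dnmt-null, with 1.01 (SE 0.24, adjusted p = 0.00439). All these libraries separated by group with a wide gap.

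miR-666-5p, one of the 2 hairpins read from the 5p arm, had 405, 457 and 408 CPM in control and 792, 1141 and 975 CPM in Dnmt-null, a log2 change of 0.96 (SE 0.20, adjusted p = 0.00158). miR-494-3p, the most abundant member, went from 4707, 4726 and 4575 CPM to 9613, 9633 and 8482 CPM, with a log2 change of 0.75 (SE 0.13, adjusted p = 2.98e-04). miR-1193-3p went from 2349, 2281 and 2066 CPM to 4350, 4159 and 3823 CPM, with 0.65 (SE 0.12, adjusted p = 7.38e-04). The rise was thus not limited to members of low level.

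Both members with the seed AUGUAAC rose. miR-411-3p had 4362, 4078 and 3755 CPM in control and 6806, 6845 and 6458 CPM in Dnmt-null, with a log2 change of 0.49 (adjusted p = 0.00729), and miR-379-3p changed by 0.68 (adjusted p = 0.0127). miR-380-3p (0.72), miR-758-3p (0.52), miR-411-5p (0.51) and miR-495-3p (0.51) completed the 12. miR-495-3p, the near copy of miR-543-3p, had 1038, 1103 and 848 CPM in control and 1404, 1743 and 1831 CPM in Dnmt-null, and the difference between the changes of these arms was not tested. Among those not called, miR-299a-3p had a log2 fold change of 1.03 and an adjusted p of 0.0524. miR-666-3p and miR-495-5p had no count in the 3 Dnmt-null libraries, and lie below the member median whether taken as fitted or at their bound.

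These fold changes are relative to TMM factors, which assume that most miRNAs do not differ. With factors from miRNAs outside the Dlk1-Dio3 locus, the member median was 0.94 in place of 0.62, and 16 members were called higher. The rest of the cluster, downstream of miR-667, had 12 of 34 arms higher and none lower in the same comparison, and the miRNAs of the locus upstream of miR-379 had 10 of 31 higher and 1 lower.

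Marker miRNAs of other cells moved in the same libraries. The miR-302 and miR-367 family of epiblast (10 listed, all with counts in both groups) held 22.2% to 23.2% of counts in E7.5 Epi control and 11.97% to 18.5% in Dnmt-null. The miR-290-295 family of trophoblast and naive cells (12 listed, all with counts) held 4.31% to 4.44% and 6.66% to 8.68%. The blood list (5 of 8 with counts in each group) held 0.0123% to 0.0195% in control and 0.0850% to 0.117% in Dnmt-null. Of its markers, miR-144-5p and miR-223-3p were at 0 in both, miR-142a-3p in control and miR-144-3p in Dnmt-null. Endoderm markers (6 of 9 with counts in control, 5 of 9 in Dnmt-null) held 0.346% to 0.418% and 0.233% to 0.304%. Of these, miR-122-3p, miR-192-3p and miR-194-1-3p were at 0 in both, and miR-375-5p in Dnmt-null. Mesenchyme and decidua markers (6 of 7 with counts, miR-214-3p at 0 in both) held 0.0370% to 0.0608% and 0.00916% to 0.0166%, and endothelial markers (2 of 2 with counts) 0.0267% to 0.0596% and 0.0156% to 0.0232%. Totals were 1623256 to 2325698 counts in control and 272867 to 488108 in Dnmt-null. The study describes Dnmt-null embryos as retarded at E7.5. By correlation of miRNA levels, Dnmt-null replicate 1 lay nearest to E6.5 Epi Dnmt3a/3b-DKO (0.902, against 0.892 with its own group). Replicates 2 and 3 lay nearest to E6.5 Epi Dnmt1-KO (0.918 and 0.912, against 0.913 and 0.911). The part of stage and of these differences in the result was not tested.

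**Figure D3:**
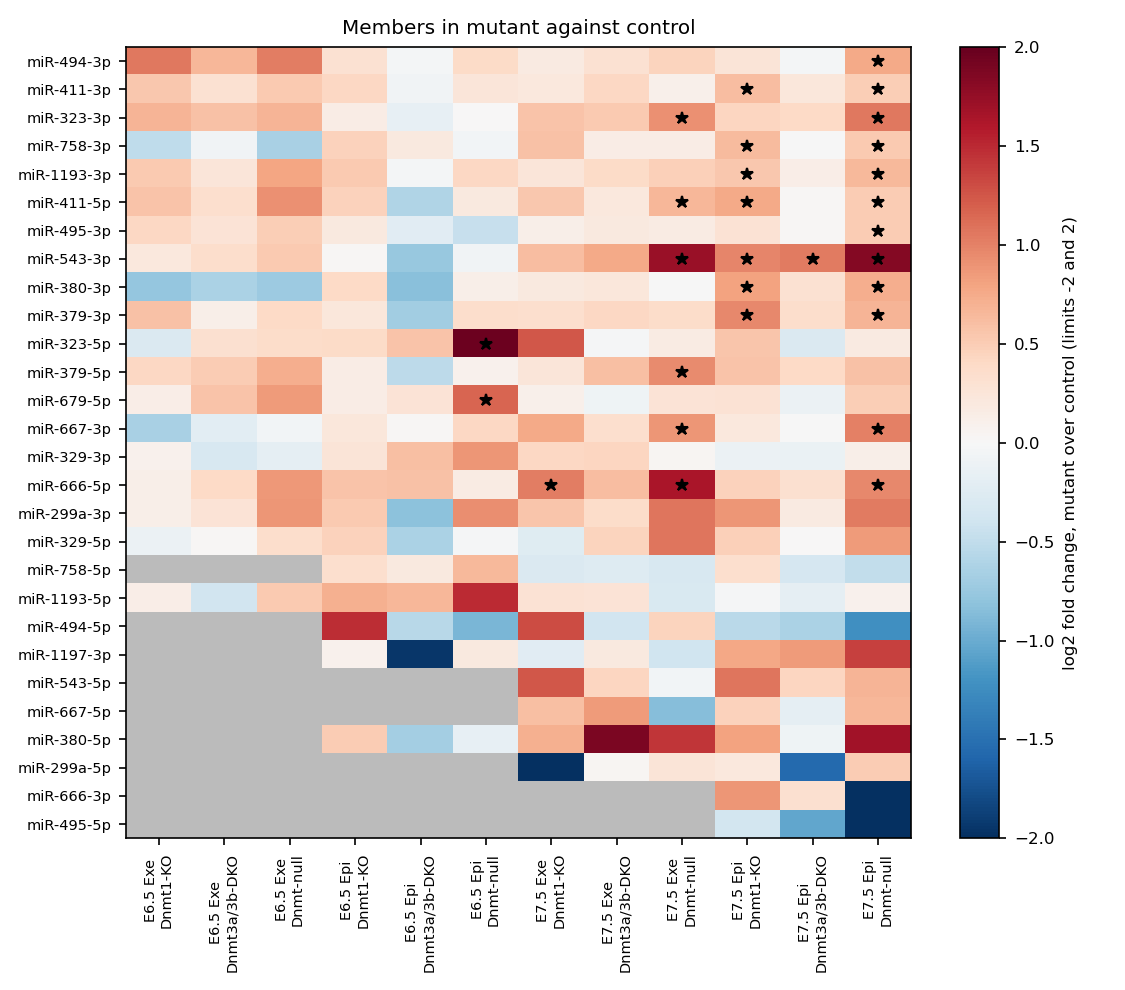
Log2 fold change of each tested member (rows, by level) in each mutant against control (columns, by stage and tissue); colours are clipped at -2 and 2, grey marks members not tested, and stars mark an adjusted p under 0.05. E7.5 Epi Dnmt-null has 12 stars and E7.5 Epi Dnmt1-KO 7, all on higher values, and the darkest blue cells of miR-666-3p and miR-495-5p in E7.5 Epi Dnmt-null rest on 0 counts there.

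In E7.5 Epi Dnmt1-KO, 7 of 28 members rose and none fell, against 8.28% of all miRNAs higher and 7.98% lower. Members had a median of 0.51, beside -0.15 over all miRNAs. miR-379-3p had 531, 529.99 and 515 CPM in control and 1173, 1369, 878 and 1235 CPM in Dnmt1-KO, with a log2 change of 0.96 (SE 0.18, adjusted p = 0.00142). miR-380-3p had 579, 620.5 and 570.5 CPM in control and 1114, 1251, 1169.8 and 1143 CPM in Dnmt1-KO, with 0.80 (SE 0.15, adjusted p = 0.00104). miR-543-3p reached 641, 882, 694 and 1250.3 CPM, with 0.98 (SE 0.23, adjusted p = 0.00661).

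For these members the Dnmt1-KO libraries all lay above the controls, as they did for miR-411-5p (0.76), miR-758-3p (0.63), miR-411-3p (0.62) and miR-1193-3p (0.54). miR-494-3p had 5612, 5306, 6440.1 and 8018 CPM and a log2 fold change of 0.25, which did not pass. With TMM factors from outside the locus, 13 members were called higher in place of 7. The miR-302 and miR-367 share ran from 15.3% to 22.2% in Dnmt1-KO, against 22.2% to 23.2% in control, and the blood share (6 of 8 listed with counts, miR-144-3p and miR-223-3p at 0) from 0.0371% to 0.0654%, against 0.0123% to 0.0195%. The part of these differences was not tested.

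In E7.5 Epi Dnmt3a/3b-DKO, 1 of 28 members rose and none fell, against 5.98% of all miRNAs higher and 1.69% lower, so the share of members was not above the background. This was miR-543-3p with 973, 748, 702 and 938 CPM, a log2 change of 1.04 (SE 0.23, adjusted p = 0.00813). The members had a median of 0.01, or -0.04 with DESeq2, beside 0.02 over all miRNAs. miR-411-3p had 4344, 5169, 5410 and 5404 CPM there and miR-494-3p 4515, 5019, 4660.1 and 5210 CPM, next to the control values given above. The blood share was 0.0381% to 0.140% (6 of 8 with counts, miR-144-5p and miR-223-3p at 0), that of miR-290-295 4.81% to 6.04% and that of endoderm markers 0.458% to 0.572% (7 of 9), all above the control ranges given above, and their part was not tested.

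The mutants were also compared with each other in E7.5 Epi. Against Dnmt3a/3b-DKO, 8 members were higher in Dnmt-null, where 6.6% of all miRNAs were higher and 9.82% lower, and 6 in Dnmt1-KO, where 3.53% were higher and 6.29% lower. Both comparisons use the same Dnmt3a/3b-DKO libraries. The largest log2 fold changes in the former were those of miR-667-3p (1.02, adjusted p = 0.00516), miR-543-3p (0.79, adjusted p = 0.0217) and miR-494-3p (0.78, adjusted p = 3.16e-04). Those in the latter were miR-411-5p (0.73, adjusted p = 0.00194), miR-758-3p (0.64, adjusted p = 0.00717) and miR-379-3p (0.62, adjusted p = 0.0265). Without Dnmt3a/3b-DKO replicate 2 or 3 the counts were 4 and 2, and without Dnmt1-KO replicate 2 or 3 the latter was 3. The miR-302 and miR-367 share was 11.97% to 18.5% in Dnmt-null and 21.7% to 22.5% in Dnmt3a/3b-DKO, and that of miR-290-295 6.66% to 8.68% and 4.81% to 6.04%. Endoderm markers held 0.233% to 0.304% and 0.458% to 0.572%, and mesenchyme and decidua markers 0.00916% to 0.0166% and 0.0475% to 0.0930%. Between Dnmt1-KO and Dnmt3a/3b-DKO all marker shares overlapped. The part of these differences was not tested.

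Dnmt-null and Dnmt1-KO differed for 4 of 28 members, all higher in Dnmt-null, against 5.06% of all miRNAs higher and 5.83% lower. These were miR-543-3p (log2 change 0.85, SE 0.22, adjusted p = 0.0197), miR-667-3p (0.79, adjusted p = 0.0312), miR-323-3p (0.63, adjusted p = 0.00783) and miR-494-3p (0.50, adjusted p = 0.0121). The libraries of the groups overlapped for miR-543-3p and did not for the others. Without any one of the 3 Dnmt-null libraries, or without Dnmt1-KO replicate 3, 2 members were called.

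**Figure D4:**
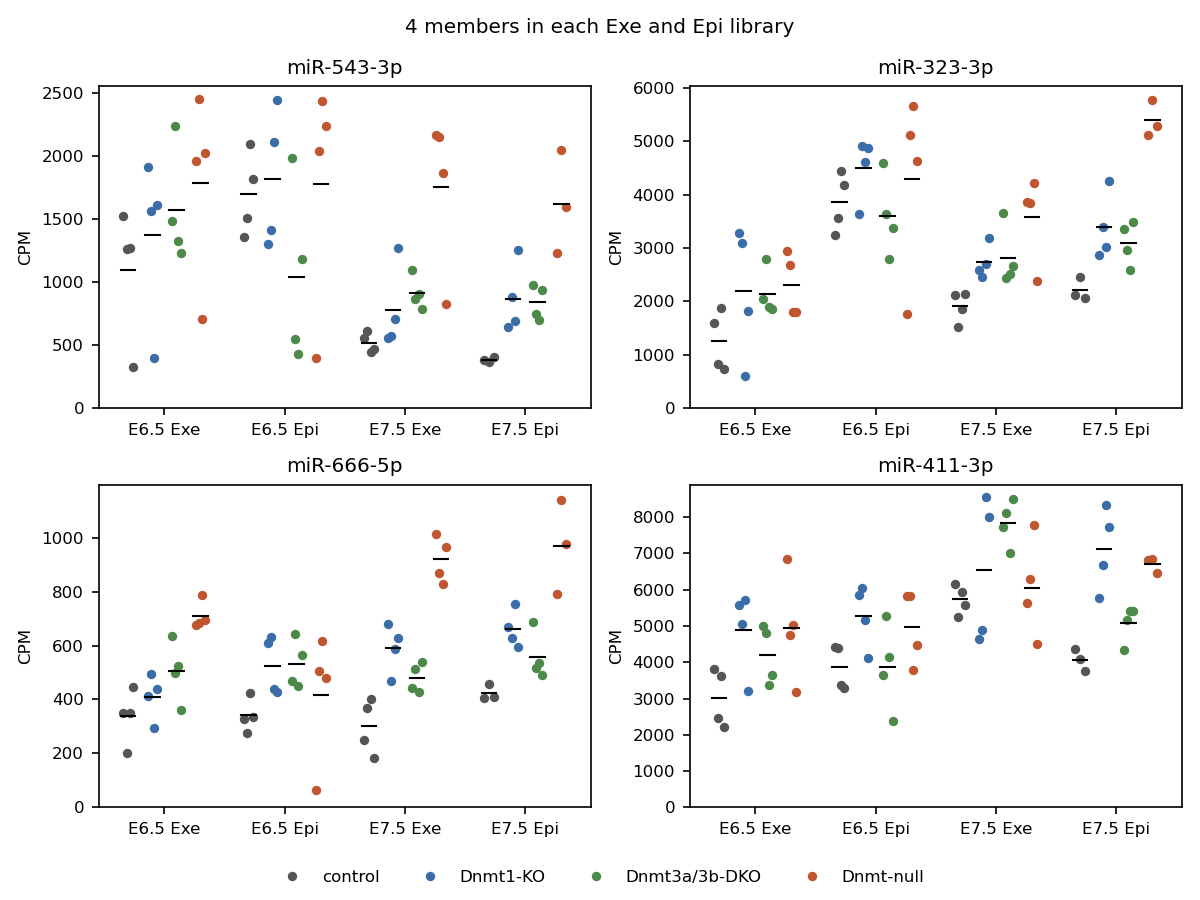
Level (CPM, from 0) of miR-543-3p, miR-323-3p, miR-666-5p and miR-411-3p in each Exe and Epi library, by stage and tissue; colours mark the genotype, points are libraries and lines group means. In E7.5 Epi the Dnmt-null points of all 4 members lie above the control points, and miR-543-3p shows the widest gap, 1228 to 2045 against 369.3 to 405 CPM.

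In E7.5 Exe Dnmt-null, 6 of 26 members rose and none fell, against 6.87% of all miRNAs higher and 3.02% lower. Their median was 0.32, beside -0.05 over all miRNAs. miR-543-3p had 559, 612, 448 and 467 CPM in control and 2162, 2147, 1866 and 824 CPM in Dnmt-null, with a log2 change of 1.73 (SE 0.29, adjusted p = 5.24e-04). miR-666-5p had 250.2, 368, 402 and 184 CPM in control and 1014, 869.8, 828 and 965 CPM in Dnmt-null, with 1.63 (SE 0.28, adjusted p = 6.27e-04). miR-323-3p had 2121, 1519, 1854 and 2143 CPM in control and 3855, 3850.0, 4218 and 2380.0 CPM in Dnmt-null, with 0.92 (SE 0.19, adjusted p = 0.00296).

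None of these overlapped between the groups, although replicate 4 of Dnmt-null was the lowest of its group for miR-543-3p and miR-323-3p. The other calls were miR-379-5p (0.94, adjusted p = 0.0384, overlapping), miR-667-3p (0.88, adjusted p = 0.0432) and miR-411-5p (0.66, adjusted p = 0.0432). Only 3 members were called without Dnmt-null replicate 1, 2 or 3 or without control replicate 2 or 3. The miR-302 and miR-367 share was 3.64% to 5.05% in control (9 of 10 with counts) and 1.93% to 3.05% in Dnmt-null, and the miR-290-295 share 12.3% to 15.4% and 11.2% to 12.7% (12 of 12). Endothelial markers (2 of 2) held 0.135% to 0.308% in control and 0.0191% to 0.236% in Dnmt-null, and blood markers 0.0410% to 0.337% (7 of 8) and 0.0174% to 0.0811% (5 of 8), with miR-223-3p at 0 in both. Their part was not tested.

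In E7.5 Exe Dnmt1-KO, 1 of 26 members rose, against 4.19% of all miRNAs, and none fell, against 0.838%, so the share of members was not above the background. miR-666-5p had 679.4, 469, 587 and 626 CPM, above every control library, with a log2 change of 1.02 (SE 0.28, adjusted p = 0.0335). The call was lost without Dnmt1-KO replicate 1, 3 or 4 or without control replicate 1 or 4, which left 0 calls. In Dnmt1-KO the miR-302 and miR-367 share was 1.15% to 4.07% and that of miR-290-295 10.8% to 12.5%, both overlapping control, and their part was not tested. In E7.5 Exe Dnmt3a/3b-DKO no member passed in edgeR, where 3.02% of all miRNAs rose and 0% fell, and 5 had an unadjusted p under 0.05. DESeq2 also called none there, and edgeR called none without replicate 2, when the member median was 0.33 in place of 0.36. The nearest was miR-323-3p, with 3647, 2439, 2523 and 2666 CPM and a log2 change of 0.52 (adjusted p = 0.210). miR-666-5p was higher in Dnmt-null than in Dnmt3a/3b-DKO by 1.01 (adjusted p = 0.0447), against 1.34% of all miRNAs higher and 2.51% lower, and this was lost without Dnmt-null replicate 1 or 2 or without any one of the Dnmt3a/3b-DKO libraries.

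Whether the Dnmt-null effect differed between Epi and Exe was tested with all 62 libraries in one model. No member passed in edgeR at E7.5, and none had an unadjusted p under 0.05, while 0.304% of all miRNAs passed in each direction. At E6.5 none passed either, against 0.608% of all miRNAs higher and 0.304% lower, and 8 had an unadjusted p under 0.05, all with a smaller effect in Epi. The median over all miRNAs was itself -0.68 in that comparison, equal to the member median of -0.68. Without Epi Dnmt-null replicate 3, 3 members passed with a smaller effect in Epi, and without Exe Dnmt-null replicate 4 or Exe control replicate 3, 2 did. The smallest adjusted p there was 0.0742, for miR-495-3p (-1.32, SE 0.39).

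At E6.5 few members passed. In E6.5 Epi Dnmt-null, 2 of 23 members rose and none fell, against 8.31% of all miRNAs higher and 4.65% lower, so the share of members was close to the background. miR-679-5p had 615, 601, 594 and 486 CPM in control and 2255, 1170.03, 1230.2 and 999 CPM in Dnmt-null, with a log2 change of 1.17 (SE 0.35, adjusted p = 0.0285). miR-323-5p had 709, 555, 279 and 347 CPM in control and 4995, 1259, 600.1 and 1088 CPM in Dnmt-null, with 1.97 (SE 0.58, adjusted p = 0.0277), and its groups overlapped.

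For both members the highest value was that of Dnmt-null replicate 1, the library of 45242 counts. Without it miR-679-5p changed by 0.89 and was the only member called. Without control replicate 1 there was 1 call, and without control replicate 2, 3 or 4 there were 0. In this comparison samples of the same replicate number deviated together, and with the replicate number as a block 1 member was called, the adjusted p of miR-679-5p being 0.0642. In Dnmt-null the miR-302 and miR-367 share was 5.68% to 11.8% (9 of 10 with counts), against 14.9% to 23.3% in control (10 of 10), and that of miR-290-295 5.21% to 11.4%, against 14.7% to 16.3% (12 of 12 in both). Blood markers held 0.128% to 0.162% in Dnmt-null replicates 2 to 4 and no count in replicate 1 (7 of 8 with counts over the group), against 0.0277% to 0.0320% in control (6 of 8), with miR-223-3p at 0 in both. The part of these differences was not tested.

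In E6.5 Epi Dnmt1-KO no member passed in edgeR or DESeq2 and none had an unadjusted p under 0.05, while 0.733% of all miRNAs rose and 0% fell. All 23 members tested had a positive log2 fold change, with a median of 0.39 beside -0.01 over all miRNAs. The smallest adjusted p was 0.483, for miR-1193-3p, with 2599, 2159, 2560.2 and 2299 CPM in control and 3538, 3419, 3834 and 3521 CPM in Dnmt1-KO. In E6.5 Epi Dnmt3a/3b-DKO the member median was -0.16, beside -0.12. No member passed in edgeR, 2 had an unadjusted p under 0.05 and DESeq2 called 1 lower, while 3.42% of all miRNAs rose and 0% fell.

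In E6.5 Exe no member passed in any mutant. The member median was 0.14 in Dnmt1-KO, 0.28 in Dnmt3a/3b-DKO and 0.52 in Dnmt-null, beside -0.06, -0.04 and -0.08 over all miRNAs, of which 0% were called in either direction in Dnmt1-KO and 0.266% in each direction in both other mutants. At an unadjusted p under 0.05 there were 1, 1 and 5 members, and DESeq2 called 1, 0 and 2. miR-494-3p had 2859, 1892, 3147 and 1023 CPM in control and 6635, 4714, 4711 and 4415 CPM in Dnmt-null, with a log2 change of 1.02 (SE 0.28, adjusted p = 0.0744). In Dnmt1-KO it had 5371, 5126, 5983 and 3957 CPM, with 1.06 (SE 0.28, adjusted p = 0.0928). Both sets of libraries lay above every control, but the E6.5 Exe control libraries held only 65751 to 202093 counts. The Dnmt1-KO member median was 0.51 without replicate 3 and 0.32 without replicate 4, and no member was called in either case. Without control replicate 3, 1 member was called in Dnmt-null and 1 in Dnmt1-KO, and without control replicate 1, 1 in Dnmt1-KO.

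Over the 12 comparisons of a mutant with control, 15 of the 28 members tested at least once were called in one or more, all of them higher, and 13 were called in none. The share of all miRNAs called in one or more is not given here, so that these numbers only describe the members. The remaining 2, miR-679-3p and miR-1197-5p, were too low to be tested. miR-543-3p was called in 4 comparisons and miR-666-5p and miR-411-5p in 3 each. miR-666-5p was the only member tested in all 12 with a positive value each time. The comparisons of one tissue and stage share their control libraries.

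Between the mutants, no member was called at E6.5 in either tissue. In E6.5 Exe 0% of all miRNAs were called in any of these comparisons, DESeq2 called 0 members, and 1 member, in Dnmt-null against Dnmt3a/3b-DKO, had an unadjusted p under 0.05. In E6.5 Epi, 1.22% were higher and 0.733% lower in Dnmt-null than in Dnmt1-KO, 0.978% and 0.244% in Dnmt-null against Dnmt3a/3b-DKO, and 0% in Dnmt1-KO against Dnmt3a/3b-DKO. DESeq2 called 1, 3 and 3 members higher in these comparisons, and 3, 6 and 3 members had an unadjusted p under 0.05. In E7.5 Exe no member was called between Dnmt-null and Dnmt1-KO, where 0.67% of all miRNAs were higher and 0.503% lower, or between Dnmt1-KO and Dnmt3a/3b-DKO, where 0.503% were higher and 1.17% lower. There 5 and 1 members had an unadjusted p under 0.05, and DESeq2 called 1 and 0.

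In AG-haESC WT and O48 the group held a smaller share of counts than in the embryo controls above, and it differed between these lines. The members held 0.0395% of counts in O48 against 0.759% in WT, 19.2-fold less. Against WT, 17 of 25 members fell in O48 and none rose, while 2.2% of all miRNAs rose and 89 of 773 fell, or 11.5%. All 25 had a negative log2 fold change, with a median of -4.14 beside -0.28 over all miRNAs. Some of the 25 were too low in O48 to pass the count filter there and passed it through the other groups. Among these were miR-1193-5p (0.328 CPM in O48, 8.58 in WT, called lower) and miR-667-5p (0.384 and 17.5, not called). The filter thus had a part in their direction. In a fit of the WT and O48 libraries alone, without the libraries labelled Mir-6KO, 20 members fell and the median was -3.86. Between these lines the miR-302 and miR-367 share was 0.482% to 0.521% in WT and 0.126% to 0.233% in O48 (9 of 10 with counts in both), that of miR-290-295 25.3% to 26.0% and 28.6% to 33.9% (12 of 12), and that of endoderm markers 0.306% to 0.335% and 0.105% to 0.116% (5 of 9, with miR-122-3p, miR-192-3p, miR-194-1-3p and miR-375-5p at 0). Blood markers held 0.0922% to 0.1001% in WT and 0.0121% to 0.0849% in O48 (7 of 8, miR-223-3p at 0), and the part of these differences was not tested.

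miR-411-3p had 828, 780.1 and 851 CPM in WT and 42.9, 50.3 and 44.2 CPM in O48, 17.5-fold lower (log2 change -4.13, SE 0.15, adjusted p = 9.48e-07). miR-494-3p had 1201, 1213 and 1196 CPM in WT and 92.1, 56.4 and 68.2 CPM in O48, with -4.02 (SE 0.21, adjusted p = 5.87e-06). miR-323-3p had 966, 978 and 1058 CPM in WT and 54.8, 31.0 and 41.2 CPM in O48, with -4.53 (SE 0.24, adjusted p = 6.48e-06). The WT libraries lay within a narrow range and far above those of O48.

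The largest changes among those called were of miR-380-3p, with 129, 158 and 139 CPM in WT and 6.09, 3.28 and 5.58 CPM in O48 (-4.80, SE 0.34, adjusted p = 3.54e-05), of miR-758-3p, with 525, 534 and 479 CPM and 14.3, 15.2 and 25.5 CPM (-4.78, adjusted p = 1.14e-05), and of miR-329-5p (-4.67, adjusted p = 3.35e-04). miR-1193-3p changed by -4.19 and miR-379-5p by -4.48. Reads were still present in O48: miR-543-3p had 65.3, 93.7 and 78.7 CPM there, after 1476, 1314 and 1484 CPM in WT (-4.14, adjusted p = 3.69e-05).

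The make-up of the group differed between these cells and embryos. miR-543-3p, at 1.65% of member counts in E7.5 Epi control, 2.06% in E7.5 Exe control, 5.85% in E6.5 Epi control and 6.18% in E6.5 Exe control, held 18.8% in AG-haESC WT and 20.4% in O48. The libraries labelled Mir-6KO had 21 of 25 members higher than O48 and none lower, against 20.4% of all miRNAs higher and 31.7% lower, and a median of 5.41. miR-411-3p had 7006 and 5083 CPM there. Their miR-290-295 share was 2.53% and 3.28%, against 25.3% to 33.9% in the other AG-haESC libraries. They held 740153 and 304874 counts of miR-127-3p and 373576 and 160417 of miR-541-5p, whose genes the study describes as deleted. By correlation of miRNA levels, replicate 1 lay nearest to SC E7.5 DKO-derived control and replicate 2 to E7.5 Epi control. The label of these libraries is therefore in doubt, and the difference from O48 is not read as one between the lines.

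**Figure D5:**
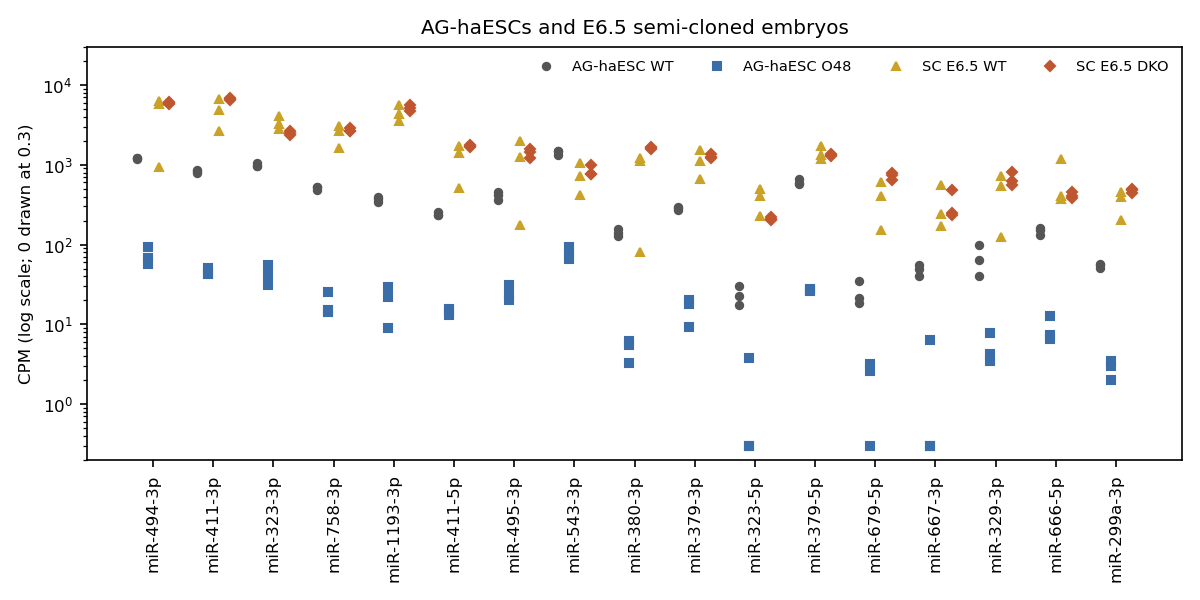
Level (CPM, log axis, 0 drawn at 0.3) of 17 members of high level in AG-haESC WT, AG-haESC O48, SC E6.5 WT and SC E6.5 DKO; each point is a library. The O48 points lie below the AG-haESC WT points in all 17, and the SC E6.5 DKO points of miR-494-3p, 5865 to 6052 CPM, lie next to SC E6.5 WT replicates 1 and 2, the lowest WT point being replicate 3.

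In SC embryos at E6.5 the group was abundant in DKO as well as in WT. The members held 3.48% ± 0.0122 of counts in DKO and 2.90% ± 0.901 in WT (n = 3 each), the WT libraries ranging from 1.89% to 3.62%. No member was called in DKO against WT by edgeR or DESeq2, 1 had an unadjusted p under 0.05, and 0% of all miRNAs were called higher and 0.217% lower. The member median was 0.10, and 0.07 without WT replicate 3. miR-411-3p had 4830, 6759 and 2668 CPM in WT and 6458, 6703 and 6824 CPM in DKO, and miR-494-3p 5797, 6355 and 941 CPM in WT and 5997, 5865 and 6052 CPM in DKO. The lowest WT value of both was that of replicate 3.

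In SC E6.5 Dnmt-null against WT no member passed in edgeR or DESeq2, 1 had an unadjusted p under 0.05, and 1.52% of all miRNAs rose and 0% fell. The median was 0.35, and 0.23 without WT replicate 3. The smallest adjusted p was 0.257, for miR-411-5p, with 1423, 1711 and 507 CPM in WT and 1837, 3359 and 2363 CPM in Dnmt-null (log2 fold change 0.82). The miR-302 and miR-367 share was 9.05% to 13.5% in Dnmt-null, below WT replicates 1 and 2. Endoderm markers held 0.356% to 0.475% (7 of 9 with counts), against 0.183% to 0.232% in WT (4 of 9), and mesenchyme and decidua markers 0.0226% to 0.0344%, against 0.0126% to 0.0163%. Their part was not tested.

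DKO;Dnmt-null was compared with DKO. These groups stand in separate tables, so that table and genotype cannot be told apart. In DKO;Dnmt-null 7 of 27 members rose and none fell, against 18.9% of all miRNAs higher and 16.4% lower, with a member median of 0.10 beside -0.05. miR-379-5p had 1283, 1346.0 and 1350.5 CPM in DKO and 2381, 2134 and 2433 CPM in DKO;Dnmt-null, with a log2 change of 0.70 (SE 0.09, adjusted p = 2.92e-06). miR-494-3p had 7742, 8400.04 and 8721 CPM in DKO;Dnmt-null, with 0.37 (SE 0.09, adjusted p = 0.00227). The other members called were miR-379-3p (0.43), miR-380-3p (0.30), miR-323-3p (0.28), miR-495-3p (0.26) and miR-1193-3p (0.25), and none of these overlapped between the groups. Without DKO replicate 1, 3 were called higher, and without DKO;Dnmt-null replicate 3, 4. Without DKO replicate 3 or DKO;Dnmt-null replicate 1, 1 was called lower. The miR-302 and miR-367 share was 19.8% to 21.7% in DKO and 14.2% to 16.1% in DKO;Dnmt-null. Blood markers held 0.0211% to 0.0291% (6 of 8 with counts) and 0.0793% to 0.101% (7 of 8), with miR-223-3p at 0 in both, endoderm markers 0.159% to 0.195% and 0.256% to 0.351% (7 of 9 in both), mesenchyme and decidua markers 0.0190% to 0.0219% and 0.0220% to 0.0332%, and endothelial markers 0.0257% to 0.0282% and 0.0200% to 0.0245%. Their part was not tested.

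At E7.5, no member passed in SC Mir-6KO;Dnmt-null against the DKO-derived control in edgeR, where 2.74% of all miRNAs rose and 0.342% fell, 2 had an unadjusted p under 0.05 and DESeq2 called 1 lower. These groups differ both in the deleted miRNA genes and in the Dnmt genes, so that the effects of these cannot be told apart. The member median was 0.10, beside -0.04. miR-758-3p had 2570.0, 2566 and 2386 CPM in control and 2255, 1921 and 2170.03 CPM in the mutant (log2 fold change -0.49, adjusted p = 0.186). miR-666-5p had 657, 674 and 476 CPM and 1734, 805 and 963 CPM (0.69, adjusted p = 0.336). These libraries held 8570373 to 26970637 counts, and their groups did not overlap for either member. In these embryos the miR-302 and miR-367 share was 19.8% to 24.6% in control and 8.60% to 18.8% in the mutant (9 of 10 with counts), blood markers held 0.00902% to 0.0108% and 0.0464% to 0.0591%, and endoderm markers 0.154% to 0.354% and 0.385% to 0.459%, and their part was not tested.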

How the data were processed

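CAS-seq miRNA libraries from mouse Exe, Epi, AG-haESCs and SC embryos were used. According to the labels and methods, the authors used fastp 0.20.1 for trimming and Bowtie 1.2.1.1 for alignment, first to GRCm38 and then to mature miRBase sequences. The deposited values are raw counts of each mature miRNA. The study used DESeq2 1.30.1. Molecular identifiers are not mentioned, so floors of 3 counts cover counting error only.

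Here CPM and percent shares were computed from the deposited counts and each library's total. The main test was quasi-likelihood in edgeR 4.0.16 (limma 3.58.1, R 4.3.3) on the raw counts, with TMM factors and filterByExpr (count minimum 10), all genotypes of one tissue and stage in one model. A member was called with a Benjamini-Hochberg adjusted p under 0.05 over all miRNAs tested. The study's rule (absolute log2 fold change above 0.5, unadjusted p under 0.05), DESeq2 1.42.0, size factors of the RLE type, TMM without the locus, no filter, a replicate block and each replicate left out were the alternatives. The scripts were tested on simulated data. Exact permutation tests used scipy 1.17.1 (Python 3.11.15) on hairpins with at least 20 counts per library.

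The members and lists were chosen with earlier results of these data known. Values per library are given for the 5 members of highest level, for up to 3 called members per comparison with the largest change and no overlap, and for members that share a seed; other members are given by counts and ranges, and further ones named were chosen after their values were seen. Nothing ties the replicates to separate animals, so p-values measure the spread between these samples, which may be technical. Replicate numbers were checked as pairs in 34 comparisons. In 2 of them, E6.5 Epi Dnmt-null against control and SC E6.5 DKO against WT, every pair of samples correlated above 0.1, and the blocked value is given. No replicate pair looked like copies of a library (lowest chi-squared per degree of freedom 4.20 over 118 pairs). Not used here were an older copy of the table, with 2 columns of no sample, and the other assays of the study.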

Additional observations from a re-analysis of the deposited data

Results flagged for a closer look

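Among groups of 4 or more libraries, 84 combinations of a group and a measure (the member share and the 5 most abundant members) were searched for a library far from its group by Dixon's test at the 95% level, and 4 were found, a number that chance alone can give. In E7.5 Epi Dnmt3a/3b-DKO, replicate 4 had a member share of 2.94%, above the other 3 libraries. miR-494-3p reached 6635 CPM in E6.5 Exe Dnmt-null replicate 1, where the others had 4415 to 4714 CPM. miR-758-3p reached 6235 CPM in E7.5 Epi Dnmt1-KO replicate 1, where the others had 4289 to 4517 CPM. miR-1193-3p reached 3745 CPM in E7.5 Exe Dnmt3a/3b-DKO replicate 4, where the others had 2778 to 2939 CPM.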

How the results depend on the processing

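No called member that was followed singly through the alternatives changed direction. Not every call named in the text was followed in this way, among them some of those in E7.5 Epi Dnmt-null against control. For these the direction under an alternative was not checked. Medians near 0 did change sign: that of E7.5 Epi Dnmt3a/3b-DKO against control went from 0.01 to -0.04 with RLE size factors or DESeq2 and -0.02 with the replicate block, and that of E7.5 control Exe against Epi from 0.07 to -0.10 with RLE size factors or DESeq2. With a library left out, the sign also changed in these comparisons and between mutants in E6.5 Exe and E7.5 Exe for Dnmt1-KO against Dnmt3a/3b-DKO and in E6.5 Epi and E7.5 Exe for Dnmt-null against Dnmt1-KO. In E7.5 Epi Dnmt-null against control, 12 members were called higher, with 13 to 16 over the other settings and 10 to 12 with a library left out. Scaling without the locus moved the member medians most, for example from 0.51 to 0.83 in E7.5 Epi Dnmt1-KO, from -0.75 to -1.25 in E6.5 control Exe against Epi and from -0.33 to -0.80 in Epi control between stages. The cause was not tested where a count changed. Counts that moved by over 1.5 times follow, as members higher unless called lower.

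With DESeq2 there were 1 in E6.5 Epi Dnmt-null against Dnmt1-KO, 3 in E6.5 Epi Dnmt-null against Dnmt3a/3b-DKO, 3 for E6.5 Epi Dnmt1-KO against Dnmt3a/3b-DKO, 1 lower in E6.5 Epi Dnmt3a/3b-DKO against control, 2 in E6.5 Exe Dnmt-null and 1 in E6.5 Exe Dnmt1-KO against control. DESeq2 also gave 13 for E7.5 Epi Dnmt-null against Dnmt3a/3b-DKO, 1 for E7.5 Exe Dnmt-null against Dnmt1-KO, 2 in E7.5 Exe Dnmt-null against Dnmt3a/3b-DKO, 5 in E7.5 Exe Dnmt1-KO against control, 1 in Epi control E7.5 against E6.5, 1 lower in Exe control E7.5 against E6.5 and 1 lower in SC E7.5 Mir-6KO;Dnmt-null against the DKO-derived control.

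With TMM without the Dlk1-Dio3 miRNAs there were 13 lower in E6.5 control Exe against Epi, 15 in E7.5 Epi Dnmt-null against Dnmt3a/3b-DKO, 10 for E7.5 Epi Dnmt1-KO against Dnmt3a/3b-DKO, 13 for E7.5 Epi Dnmt1-KO and 2 in E7.5 Exe Dnmt1-KO against control, and 5 lower in Epi control E7.5 against E6.5. With RLE size factors there were 1 in E7.5 Exe Dnmt-null against Dnmt1-KO, 2 in E7.5 Exe Dnmt-null against Dnmt3a/3b-DKO and 1 lower in Exe control E7.5 against E6.5.

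With no filter there were 1 in E6.5 Epi Dnmt-null, 1 in E6.5 Exe Dnmt-null, 1 in E6.5 Exe Dnmt1-KO and 3 in E7.5 Exe Dnmt-null against control, 1 higher and 1 lower in E7.5 Exe Dnmt-null against Dnmt1-KO, 0 in E7.5 Exe Dnmt-null against Dnmt3a/3b-DKO, 1 in E7.5 Exe Dnmt1-KO against Dnmt3a/3b-DKO, 1 lower in Epi control and 1 lower in Exe control E7.5 against E6.5, and 1 lower in SC E6.5 DKO;Dnmt-null against DKO.

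With the replicate block there were 1 in E6.5 Epi Dnmt-null, 1 in E6.5 Exe Dnmt-null and 0 in E7.5 Exe Dnmt1-KO against control, 0 in E7.5 Exe Dnmt-null against Dnmt3a/3b-DKO, 1 lower in E7.5 control Exe against Epi and 1 lower in SC E6.5 DKO;Dnmt-null against DKO. Replicate numbers paired the samples only in E6.5 Epi Dnmt-null against control and in SC E6.5 DKO against WT, where the block gave 0 as before. Over the 34 comparisons, same-number correlations ran from -0.360 to 0.454, and in 2 comparisons every sample correlated best with its own number.

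With the study's thresholds, which 0.532% to 36.6% of all miRNAs passed in a direction, there were 5 in E6.5 Exe Dnmt-null, 1 in E6.5 Exe Dnmt1-KO, 1 in E6.5 Exe Dnmt3a/3b-DKO, 2 lower in E6.5 Epi Dnmt3a/3b-DKO, 7 in E7.5 Exe Dnmt1-KO and 4 in E7.5 Exe Dnmt3a/3b-DKO against control. Between mutants they gave 1 in E6.5 Exe Dnmt-null against Dnmt3a/3b-DKO, 2 higher and 1 lower in E6.5 Epi Dnmt-null against Dnmt1-KO, 6 in E6.5 Epi Dnmt-null against Dnmt3a/3b-DKO, 3 for E6.5 Epi Dnmt1-KO against Dnmt3a/3b-DKO, 4 higher and 1 lower in E7.5 Exe Dnmt-null against Dnmt1-KO, 2 in E7.5 Exe Dnmt-null against Dnmt3a/3b-DKO and 1 in E7.5 Exe Dnmt1-KO against Dnmt3a/3b-DKO. They gave 8 lower for the E6.5 Dnmt-null effect in Epi minus in Exe, 1 higher and 4 lower in Epi control and 9 higher and 1 lower in Exe control E7.5 against E6.5, and 1 lower in the AG-haESCs labelled Mir-6KO against O48. In SC embryos they gave 1 in E6.5 Dnmt-null and 1 lower in E6.5 DKO against WT, 1 higher and 2 lower in E6.5 DKO;Dnmt-null against DKO and 1 in E7.5 Mir-6KO;Dnmt-null against control.

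With a library left out, the ranges were 0 to 2 in E6.5 Epi Dnmt-null, 0 to 1 in E6.5 Exe Dnmt-null, 0 to 1 in E6.5 Exe Dnmt1-KO, 3 to 6 in E7.5 Exe Dnmt-null and 0 to 1 in E7.5 Exe Dnmt1-KO against control. Between mutants they were 2 to 4 in E7.5 Epi Dnmt-null against Dnmt1-KO, 4 to 11 in E7.5 Epi Dnmt-null against Dnmt3a/3b-DKO, 2 to 8 for E7.5 Epi Dnmt1-KO against Dnmt3a/3b-DKO, 0 to 1 in each direction in E7.5 Exe Dnmt-null against Dnmt1-KO, 0 to 1 for Dnmt-null against Dnmt3a/3b-DKO there, and 0 to 1 lower in E6.5 Epi Dnmt-null against Dnmt1-KO, the 1 being without Dnmt-null replicate 3. The E7.5 Exe calls of Dnmt-null against Dnmt1-KO came without Dnmt-null replicate 4 or Dnmt1-KO replicate 4. They were 0 to 1 lower in E7.5 control Exe against Epi and in Exe control between stages, 1 to 2 lower in Epi control, 0 to 3 lower for the E6.5 Dnmt-null effect in Epi minus in Exe, 0 to 1 lower in Mir-6KO against O48 (1 without O48 replicate 2), and 3 to 8 higher and 0 to 1 lower in SC E6.5 DKO;Dnmt-null against DKO. Depth limits E6.5 most, where 3 counts were worth up to 66.3 CPM.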

Other observations

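The AG-haESC libraries labelled 408 entered no comparison, since no source used here says what this line is. The members held 0.0143% to 0.0147% of their counts (n = 3). In these libraries miR-494-3p had 13.8, 32.0 and 29.0 CPM, miR-411-3p 20.1, 21.6 and 12.04 CPM and miR-543-3p 23.9, 32.3 and 33.5 CPM. miR-666-5p had 0, 0 and 5.37 CPM, and miR-679-5p had no count in any of them.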
